A study of Mus musculus with 8 samples.

Results

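The genes described here are 9 markers of border-associated macrophages, Mrc1, Cd163, Lyve1, Stab1, Pf4, Cbr2, F13a1, Ms4a7 and Folr2, out of 54752 genes counted in the right cerebral cortex of mice. They were listed by name as known markers, not by a threshold on a measured value, and all 9 were found in the count tables by gene identifier. The samples were the right cortex of adult male wild-type C57BL/6 mice, 4 after sham surgery and 4 after bilateral carotid artery stenosis (BCAS), 3 weeks after surgery, with 1 mouse per library. In BCAS, microcoils are wrapped around both common carotid arteries, here with the narrower coil on the right, to reduce cerebral blood flow. Sham mice had the same operation without the coils. The comparison asks which transcripts of the more deeply hypoperfused cortex differed from those of sham mice. The sources used here do not say whether the meninges stayed on the cortex or whether blood was flushed from the vessels.

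Border-associated macrophages live along blood vessels, in the meninges and in the choroid plexus, outside the brain parenchyma that microglia occupy. They are known for scavenger and lectin receptors that take up proteins, sugars and cell debris, and for sampling the fluid around vessels. Their survival depends, like that of microglia, on the receptor Csf1r, which both cell types express. Several of the markers have other sources, since Pf4 is also a platelet transcript, Lyve1 a lymphatic endothelial one, and F13a1 and Ms4a7 are also found in monocytes or macrophages derived from them.

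The libraries held 16759364 to 21794435 counts. A gene was called when edgeR's quasi-likelihood test gave it an adjusted p under 0.05 and its log2 fold change was above 1 or below -1, with p-values adjusted by the Benjamini-Hochberg method over 17136 tested genes. Levels are in CPM, the counts scaled to a common library size with TMM factors, and errors are SD over 4 mice unless named otherwise. The list for cortical excitatory neurons (6 genes) summed to 4740 to 6156 CPM in sham mice and 1565 to 3888 CPM in BCAS mice. Much of this was Snap25, which neurons in general make, at a mean of 3218 CPM in sham and 1537 CPM in BCAS mice. Tbr1, a transcription factor of the list, had 1061 to 4115 counts per library, so neuronal tissue was evident in every library. Sham mouse 3 stood apart by choroid plexus transcripts. Its 10 choroid plexus genes summed to 810 CPM, against 21.5 to 80.6 CPM in the other 7 libraries, and it held 12169 counts of Ttr, a choroid plexus transport protein, against 128 to 814 elsewhere. The choroid plexus has macrophages of its own, so values without sham mouse 3 are given where they matter.

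RefSeq start sites on GRCm38.p6 were found for 8 of the 9 genes, with 11 start sites in all. The 250 bases before 1 start are shown for each of 4 genes, since they cover genes with large, moderate and uncalled differences. Capitals mark GAGGAA on either strand, the core bound by PU.1 (Spi1), the transcription factor that macrophages depend on. The window of Mrc1 is chr2:14229164-14229413 on the plus strand, that of Cd163 chr6:124304401-124304650 on the plus strand, that of F13a1 chr13:37050245-37050494 on the minus strand and that of Ms4a7 chr19:11336147-11336396 on the minus strand, each read 5′ to 3′ along the gene.
Mrc1: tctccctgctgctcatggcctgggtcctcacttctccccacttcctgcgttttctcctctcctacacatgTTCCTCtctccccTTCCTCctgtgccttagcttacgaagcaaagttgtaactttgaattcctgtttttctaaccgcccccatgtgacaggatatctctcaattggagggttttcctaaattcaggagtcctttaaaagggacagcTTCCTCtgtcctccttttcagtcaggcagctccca
Cd163: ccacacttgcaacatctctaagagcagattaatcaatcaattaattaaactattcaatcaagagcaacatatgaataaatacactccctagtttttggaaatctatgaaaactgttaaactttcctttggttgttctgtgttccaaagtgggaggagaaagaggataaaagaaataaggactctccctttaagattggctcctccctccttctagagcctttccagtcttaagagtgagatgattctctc
F13a1: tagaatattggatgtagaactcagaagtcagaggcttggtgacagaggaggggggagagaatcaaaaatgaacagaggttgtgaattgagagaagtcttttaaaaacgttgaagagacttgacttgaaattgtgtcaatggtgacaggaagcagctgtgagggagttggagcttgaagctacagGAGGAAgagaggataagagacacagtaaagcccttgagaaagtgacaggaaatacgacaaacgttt
Ms4a7: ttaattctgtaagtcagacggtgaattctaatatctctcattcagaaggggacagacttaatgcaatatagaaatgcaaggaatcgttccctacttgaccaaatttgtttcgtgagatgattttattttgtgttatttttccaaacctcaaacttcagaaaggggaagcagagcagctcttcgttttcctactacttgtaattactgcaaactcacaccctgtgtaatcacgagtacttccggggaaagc
The core occurred 3 times before Mrc1, 1 time in the F13a1 window shown and not in the Cd163 and Ms4a7 windows. The other F13a1 window, chr13:37049214-37049463 on the minus strand, did not hold it. Among all 11 windows of the markers 5 held it, against 23.3% of 32851 windows of the same length over the genome. TGCTGAC, a half-site for MAF factors, was in 0 of the 11 windows and in 3.81% of all windows. Both strands were searched, and no marker window held both motifs. A match of letters is a description of the sequence.

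Of the 9 markers 6 rose in BCAS mice (Mrc1, Lyve1, Stab1, Cbr2, F13a1 and Ms4a7), none fell, 2 did not pass the test (Cd163 and Pf4), and Folr2 was too low to be tested. Among all tested genes 11.0% were called higher and 1.28% lower. In the same 6 genes every BCAS mouse was above every sham mouse, which held for 18.5% of all tested genes. The 8 tested markers had log2 fold changes of 0.84 to 4.65 with a median of 2.0, and the median over all tested genes was -0.01, with percentiles 5 and 95 at -0.76 and 2.04. Cbr2 and Ms4a7 passed the filter on low counts only through the BCAS libraries, since 2 of 4 sham libraries reached its level of 0.558 CPM, so their passing depended on the difference itself. In whole tissue, more macrophages and more RNA per macrophage cannot be told apart. Together the 9 markers took 41.5 to 47.7 CPM in sham mice and 77.9 to 365 CPM in BCAS mice.

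**Figure D1:**
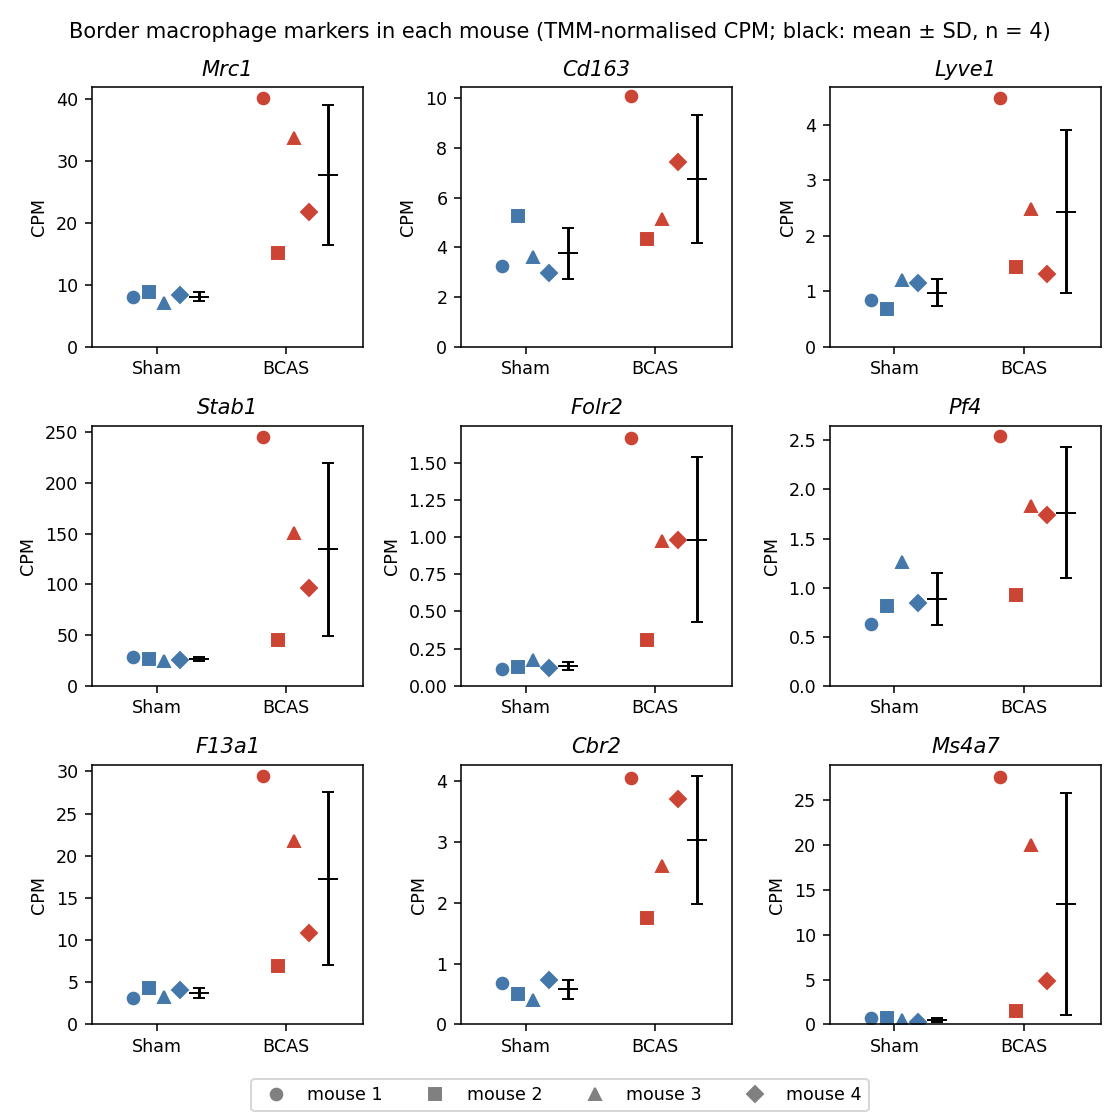
TMM-scaled CPM (vertical axes, each from 0 and on its own scale) of the 9 markers, with 1 symbol per mouse for 4 sham mice (blue) and 4 BCAS mice (red), and the mean ± SD in black beside each group. Cd163 and Pf4 are the genes whose groups overlap, and BCAS mouse 1 (circle) is the highest point in all 9 panels.

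The endocytic receptors made up most of the transcripts of the group. Mrc1 (ENSMUSG00000026712.3, mm10 chromosome 2, 14229392 to 14332057, plus strand) encodes the mannose receptor CD206, a C-type lectin that takes up mannosylated glycoproteins. It was at 8.01, 8.92, 7.09 and 8.39 CPM in sham mice 1 to 4 and at 40.3, 15.2, 33.8 and 21.8 CPM in BCAS mice 1 to 4. The lowest BCAS mouse lay well above the highest sham mouse. Mean CPM was 8.10 ± 0.771 in sham and 27.8 ± 11.3 in BCAS mice (n = 4 each). The log2 fold change was 1.78 ± 0.28 (SE; adjusted p = 0.00391, edgeR).

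Stab1 (ENSMUSG00000042286.13, chromosome 14, 31139013 to 31168641, minus strand) encodes stabilin-1, a large scavenger receptor that clears modified lipoproteins and matrix proteins. It was at 28.6, 26.3, 24.1 and 25.6 CPM in sham mice and at 245, 45.5, 151 and 96.3 CPM in BCAS mice. The sham mice were close together, whereas BCAS mouse 1 was 5.38 times BCAS mouse 2. Its log2 fold change was 2.36 ± 0.43 (SE, n = 4 each; adjusted p = 0.00639, edgeR). The gene shares 1.09% of its exon bases with Nt5dc2 on the opposite strand, and counting took no account of strand.

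Lyve1 (ENSMUSG00000030787.4, chromosome 7, 110850607 to 110863239, minus strand) encodes a receptor for hyaluronan, a long sugar polymer of the extracellular matrix. It had 15, 11, 21 and 19 counts in sham mice (0.852, 0.686, 1.20 and 1.15 CPM) and 102, 28, 46 and 24 counts in BCAS mice (4.48, 1.44, 2.48 and 1.31 CPM). The groups did not overlap, but BCAS mice 2 and 4 lay just above the highest sham mouse. The log2 fold change was 1.32 ± 0.43 (SE, n = 4 each; adjusted p = 0.0441, edgeR). This call was kept under 9 of 19 alternatives, fewer than for any other of the 6 genes. It was lost when any 1 sham mouse, BCAS mouse 1 or BCAS mouse 3 was left out, with adjusted p between 0.0176 and 0.113 over all 8 omissions and a log2 fold change between 0.85 and 1.53, and without sham mouse 3 the value was 1.43 (adjusted p = 0.0690, edgeR). Prox1, a transcription factor on the list for lymphatic endothelium, had a log2 fold change of 0.27 (adjusted p = 0.0572, edgeR). Of the 5 lymphatic genes 4 were tested and 1 rose, Pdpn, a membrane glycoprotein also made by fibroblasts, and the list summed to 38.7 to 51.2 CPM in sham and 53.6 to 95.2 CPM in BCAS mice. Prox1 alone was at 20.1 to 24.0 CPM in sham mice, so much of these sums was 1 gene. Whether the list measures lymphatic cells in cortex, and the part of such cells in the Lyve1 difference, was not tested.

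Cd163 (ENSMUSG00000008845.9, chromosome 6, 124304656 to 124330527, plus strand) encodes the receptor that takes up complexes of hemoglobin and haptoglobin. It was at 3.24, 5.24, 3.60 and 2.96 CPM in sham mice and at 10.1, 4.33, 5.13 and 7.41 CPM in BCAS mice. Sham mouse 2 lay above BCAS mice 2 and 3, so the groups overlapped. Mean CPM was 3.76 ± 1.02 in sham and 6.73 ± 2.58 in BCAS mice. Its log2 fold change was 0.84 ± 0.30 (SE, n = 4 each; adjusted p = 0.0587, edgeR), which did not pass the test. Without BCAS mouse 2 it was 1.02 (adjusted p = 0.0154, edgeR) and passed.

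Folr2 (ENSMUSG00000032725.10, chromosome 7, 101839988 to 101857194, minus strand) encodes folate receptor beta, a membrane-anchored folate-binding protein. It had 2, 2, 3 and 2 counts in sham mice and 38, 6, 18 and 18 counts in BCAS mice. Every BCAS mouse was above every sham mouse, but only 3 libraries reached the filter level, so Folr2 was left out of the test. Summed over mice, 80 against 9 counts gave a ratio of 7.61 per library size, with an exact 95% interval of 3.82 to 17.3 that covers counting error only. Of its exon bases 63.1% are shared with Gm10602 on the opposite strand, which had 9 to 22 counts in sham and 21 to 51 in BCAS mice. Without a filter on low counts its log2 fold change was 2.82 (adjusted p = 0.00751, edgeR).

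The secreted proteins of the group are a clotting enzyme and a chemokine. F13a1 (ENSMUSG00000039109.16, chromosome 13, 36867178 to 37050244, minus strand) encodes the catalytic subunit of coagulation factor XIII, a transglutaminase that cross-links fibrin. It was at 3.18, 4.37, 3.26 and 4.10 CPM in sham mice and at 29.5, 6.95, 21.8 and 10.9 CPM in BCAS mice. All BCAS mice were above all sham mice, with BCAS mouse 2 nearest to them. Mean CPM was 3.73 ± 0.596 in sham and 17.3 ± 10.3 in BCAS mice. This gave a log2 fold change of 2.21 ± 0.42 (SE, n = 4 each; adjusted p = 0.00757, edgeR). The gene shares 1.10% of its exon bases with Gm30489.

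Pf4 (ENSMUSG00000029373.7, chromosome 5, 90772435 to 90773383, plus strand) encodes platelet factor 4 (CXCL4), a chemokine stored in platelet granules and also made by border macrophages. It had 11, 13, 22 and 14 counts in sham mice (0.625, 0.811, 1.26 and 0.845 CPM) and 58, 18, 34 and 32 counts in BCAS mice (2.55, 0.927, 1.84 and 1.74 CPM). BCAS mouse 2 lay below sham mouse 3, so the groups overlapped. The log2 fold change of 0.99 ± 0.36 (SE, n = 4 each) did not pass the test (adjusted p = 0.0598, edgeR). It passed without BCAS mouse 2, at 1.21 (adjusted p = 0.0140, edgeR), and was 1.20 without sham mouse 3 (adjusted p = 0.0560, edgeR). Of 10 platelet genes 3 were tested and none was called, 0 had an unadjusted p under 0.05 by edgeR, Gp1bb was at 0 in every library, and the list summed to 4.71 to 6.30 CPM in sham and 5.29 to 7.83 CPM in BCAS mice. Ppbp, a chemokine that platelets carry in abundance, had 7, 9, 2 and 0 counts in sham and 0, 0, 5 and 3 counts in BCAS mice. Other untested platelet genes were higher in some BCAS mice, with Treml1, a receptor of platelet granules, at 1, 4, 1 and 1 counts in the sham group and 10, 11, 13 and 2 in the BCAS group, Tubb1, the platelet tubulin, at 4, 4, 2 and 0 against 18, 1, 12 and 2, and Clec1b, a platelet lectin receptor, at 3, 3, 3 and 1 against 9, 2, 5 and 8. The part of platelets in the Pf4 values was not tested.

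Cbr2 (ENSMUSG00000025150.10, chromosome 11, 120729489 to 120732114, minus strand) encodes a carbonyl reductase, an enzyme that reduces aldehydes and ketones. It was at 0.682, 0.499, 0.400 and 0.724 CPM in sham mice, from 7 to 12 counts, and at 4.04, 1.75, 2.59 and 3.71 CPM in BCAS mice, from 34 to 92 counts. The groups were well apart, and Cbr2 had the narrowest span of the 9 genes among BCAS mice, with the highest 2.31 times the lowest. Its log2 fold change was 2.38 ± 0.35 (SE, n = 4 each; adjusted p = 0.00301, edgeR).

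Ms4a7 (ENSMUSG00000024672.11, chromosome 19, 11321039 to 11336146, minus strand) encodes a membrane protein with several spans, made by macrophages outside the parenchyma and scarce in resting microglia. It had 12, 12, 8 and 4 counts in sham mice (0.682, 0.749, 0.458 and 0.241 CPM) and 627, 29, 370 and 89 counts in BCAS mice (27.6, 1.49, 19.99 and 4.85 CPM). Ms4a7 differed more between BCAS mice than any other marker, with the highest 18.5 times the lowest, and even the lowest BCAS mouse was above every sham mouse. The log2 fold change was 4.65 ± 0.91 (SE, n = 4 each; adjusted p = 0.00840, edgeR), and 0.619% of the tested genes had a larger one. Under limma-voom it was 4.00 and not called (adjusted p = 0.0887).

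**Figure D2:**
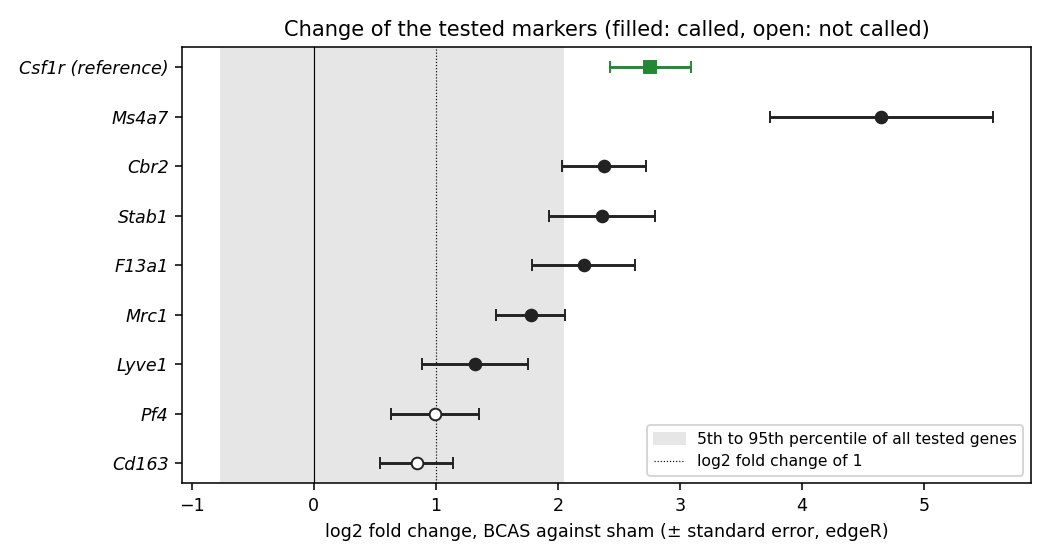
Log2 fold change of BCAS against sham mice (horizontal axis) for the 8 tested markers and Csf1r, with bars of 1 SE from edgeR, filled points for called genes, a dotted line at the threshold of 1 and a grey band from percentile 5 to 95 of all tested genes. Ms4a7 stands at 4.65, Mrc1, Lyve1, Stab1, Cbr2 and F13a1 lie between 1.32 and 2.38, and Cd163 and Pf4 are the open points at 0.84 and 0.99.

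The BCAS mice differed among themselves in much the same order for all markers. BCAS mouse 1 was the highest for all 9 genes and BCAS mouse 2 the lowest for 8, with Lyve1 lowest in BCAS mouse 4. As multiples of the sham mean, BCAS mouse 1 ran from 2.68 for Cd163 to 51.8 for Ms4a7, and BCAS mouse 2 from 1.05 for Pf4 to 3.04 for Cbr2. The coefficient of variation among BCAS mice was 34.7% for Cbr2, 40.8% for Mrc1, 63.5% for Stab1 and 91.8% for Ms4a7. In sham mice it was 26.5% for Cbr2, 9.51% for Mrc1, 7.26% for Stab1 and 43.3% for Ms4a7. The homeostatic microglial genes likewise summed highest in BCAS mouse 1 and lowest in BCAS mouse 2. Without BCAS mouse 2 the number called was 9, Folr2 included, although Folr2 reached the filter level in no sham library and so entered that test through its difference. Without BCAS mouse 1 or 3 the count was 5.

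Per kilobase of exon, which allows levels of different genes to be compared, Stab1 was the most abundant marker in sham mice at 2.54 ± 0.185 CPM per kb (n = 4). Mrc1 at 1.27 ± 0.121 and Pf4 at 1.23 ± 0.370 CPM per kb followed and did not differ beyond their spread between mice. Within sham mice 1 to 4, Mrc1 was at places 2, 2, 3 and 2 and Pf4 at 3, 3, 2 and 3. Below them came Cd163 at 0.689 ± 0.187, F13a1 at 0.553 ± 0.0885, Cbr2 at 0.434 ± 0.115 and Lyve1 at 0.333 ± 0.0836 CPM per kb. Among these, Cd163 and F13a1, and Cbr2 and Lyve1, were within 1 SD of each other. The lowest levels were those of Ms4a7 at 0.120 ± 0.0518 and Folr2 at 0.0858 ± 0.0170 CPM per kb, which also lay within 1 SD. The Folr2 level was divided by all its exon bases, of which 63.1% are shared with Gm10602 and may have taken no counts, so its place among the markers, and that of Ms4a7 beside it, is uncertain.

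In BCAS mice Stab1 stayed first at 13.1 ± 8.29 and Mrc1 second at 4.36 ± 1.78 CPM per kb. By the group mean Ms4a7 went from place 8 to place 3, at 3.03 ± 2.78 CPM per kb, but within single BCAS mice it was at place 3 in mice 1 and 3, place 8 in mouse 2 and place 7 in mouse 4. F13a1 at 2.56 ± 1.52, Pf4 at 2.45 ± 0.921 and Cbr2 at 2.28 ± 0.792 CPM per kb came next by the group mean. From Mrc1 to Cbr2 each neighbour was within the larger SD of the pair, but this spread between mice does not measure the order within a mouse. Mrc1 was at place 2 in all 4 BCAS mice. In BCAS mice 1 to 4, F13a1 was at places 4, 5, 4 and 5, Pf4 at 5, 4, 5 and 4, and Cbr2 at 6, 3, 6 and 3. Cd163 was at 1.23 ± 0.472, Lyve1 at 0.832 ± 0.503 and Folr2 at 0.636 ± 0.360 CPM per kb. As a share of the summed level of the 9 markers, Cd163 went from 9.49% in sham to 4.05% in BCAS mice, Pf4 from 16.9% to 8.04%, Stab1 from 35.0% to 42.9% and Ms4a7 from 1.65% to 9.94%. Within BCAS mice 1 to 4 the share of Ms4a7 was 11.97%, 2.73%, 12.97% and 4.71%. These shares describe the composition of the group and were not tested.

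Csf1r, which microglia and border macrophages share, served as a reference for the markers. It was at 106 ± 8.84 CPM in sham and 718 ± 360 CPM in BCAS mice. Its log2 fold change was 2.76 ± 0.33 (SE, n = 4 each; adjusted p = 0.00195, edgeR), above that of every tested marker but Ms4a7. Its exons share 17.8% of their bases with Hmgxb3 on the opposite strand, which had 677 to 855 counts in sham and 759 to 834 counts in BCAS mice. The log2 ratio of marker to Csf1r counts, with 0.5 added to each, was compared by an exact two-sided permutation test over the 70 arrangements of the mice. This test cannot give a p below 0.0286. The adjusted p of a marker at that floor depends on how many other markers reach it, and not on the size of its difference.

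For Mrc1 the log2 ratio to Csf1r was -3.72, -3.73, -3.78 and -3.61 in the 4 sham mice, against -4.91, -4.50, -4.28 and -4.91 in the BCAS mice. For Cd163 it was -5.02, -4.49, -4.75 and -5.10 in the sham group, against -6.91, -6.30, -6.99 and -6.47 in the BCAS group. For Pf4 it was -7.34, -7.14, -6.25 and -6.87 in the sham group, against -8.88, -8.50, -8.46 and -8.54 in the BCAS group. In these 3 genes and in Lyve1 all 4 BCAS mice lay below all 4 sham mice. The differences were -0.94 for Mrc1, -1.83 for Cd163, -1.47 for Lyve1 and -1.69 for Pf4, each with p = 0.0286 in the exact permutation test and an adjusted p = 0.0643 over the 9 markers, so none passed the correction.

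Per Csf1r transcript, the mean level in BCAS mice was thus 0.521 times that of sham mice for Mrc1, 0.282 for Cd163, 0.361 for Lyve1 and 0.309 for Pf4. Stab1 differed by -0.51 and F13a1 by -0.62 on the log2 scale, with overlapping groups (exact permutation p = 0.0571, adjusted p = 0.0857 for both). Cbr2 differed by -0.33 (exact permutation adjusted p = 0.257), with an SD between mice of 0.39 in sham and 0.34 in BCAS mice. Folr2 differed by -0.19 (exact permutation adjusted p = 0.543), with an SD of 0.29 in sham and 0.31 in BCAS mice. Ms4a7 alone had a positive difference, 1.32, with overlapping groups (exact permutation adjusted p = 0.220), and BCAS mice 1 and 3 were the high ones at -5.45 and -5.04. Against the summed complement genes C1qa, C1qb and C1qc, all 8 other markers were lower with an adjusted p = 0.0321 in the exact permutation test, and the Ms4a7 difference was -0.13.

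**Figure D3:**
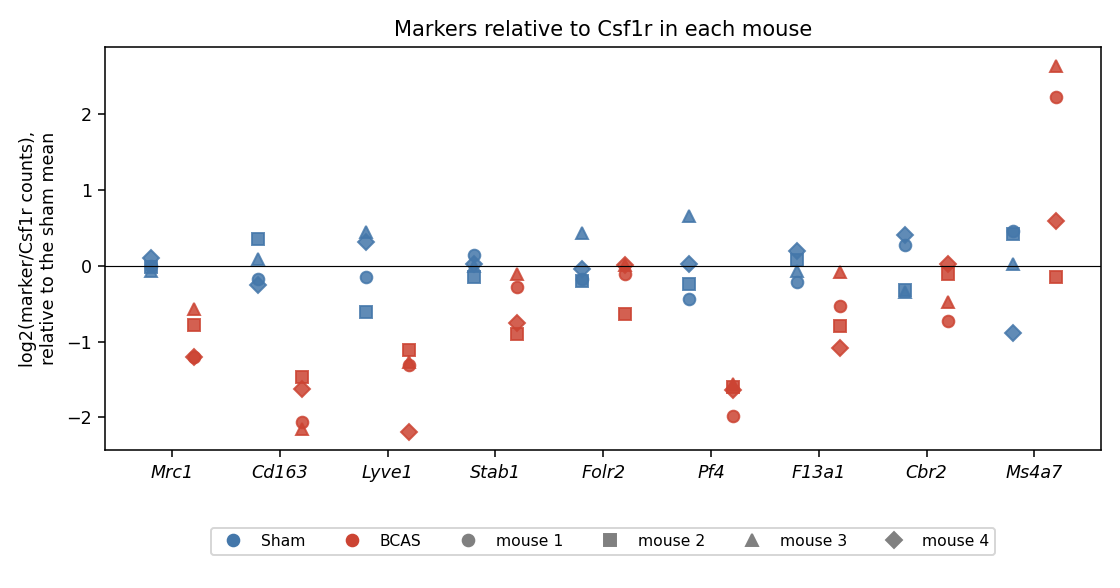
Log2 ratio of marker to Csf1r counts (vertical axis), with the sham mean of each marker set to 0 and 1 symbol per mouse for 4 sham mice (blue) and 4 BCAS mice (red). The BCAS mice lie below all sham mice for Mrc1, Cd163, Lyve1 and Pf4, and on both sides of the sham mean for Ms4a7.

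The markers were also set against one another, as 36 pairs of log2 count ratios. Of these, 16 had p = 0.0286 in the exact permutation test and 0 passed the correction over 36 pairs, where the smallest adjusted p was 0.0643. Since p cannot be lower, this adjusted p was set by how many pairs reached the floor, so the correction cannot decide on single pairs. Cd163 and Pf4 were each in 6 of the 16. Cd163 against Ms4a7 differed by -3.15 between BCAS and sham mice, Pf4 against Ms4a7 by -3.02, Mrc1 against Ms4a7 by -2.26 and Cd163 against Stab1 by -1.32. Cd163 and Pf4 themselves differed by -0.13 (exact permutation p = 0.686).

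Further border macrophage genes, a list of 20 other than the 9, had 15 tested members, of which 11 rose and none fell, with a median log2 fold change of 1.88. Of the 15, 5 had under 4 sham libraries at the filter level, and 4 of these were among the 11. Siglec1, a sialic acid receptor of tissue macrophages that interferon also induces, went from 6, 10, 5 and 7 counts in sham mice to 1276, 82, 564 and 273 in BCAS mice. Its log2 fold change was 5.97 (adjusted p = 0.00280, edgeR). Tgfbi, a secreted matrix protein, had a log2 fold change of 3.28 (adjusted p = 0.00540, edgeR). Dab2, an endocytic adaptor, had 2.0 (adjusted p = 0.00375, edgeR), and Maf, a transcription factor of tissue macrophages, had 0.80 (adjusted p = 0.0196, edgeR) and so stayed under the threshold on the fold change. Other members overlapped between the groups. The C-type lectin Cd209f, which was tested, had 11, 9, 4 and 16 counts in sham and 46, 10, 4 and 12 in BCAS mice. Cd36, a scavenger receptor, rose (log2 fold change 2.58, adjusted p = 0.0304, edgeR) but had 28, 19, 74 and 10 counts in sham and 512, 61, 288 and 83 in BCAS mice. Cd209b, another C-type lectin, was at 0 to 5 counts in every library and was not tested.

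Other cells that could hold these transcripts, or stand near the cells that do, were measured by their own lists. All 12 homeostatic microglial genes rose, with a median log2 fold change of 2.37 and sums of 325 to 392 CPM in sham and 1302 to 4764 CPM in BCAS mice. All 13 genes shared by mononuclear phagocytes rose, with a median of 3.97, and so did all 10 of disease-associated microglia, with a median of 5.83, of which 4 had under 4 sham libraries at the filter level. Of 13 blood monocyte and neutrophil genes 4 were tested and called higher, 2 of them (Ccr2 and Ly6c2) with under 4 sham libraries at the filter level, so that their passing rested on the BCAS libraries. The sums were 83.8 to 106 CPM in sham and 181 to 729 CPM in BCAS mice. Most of these sums was Fn1, a matrix protein that many cell types make, at 74.7 to 96.9 CPM in sham and 122 to 433 CPM in BCAS mice, so they say little about monocyte transcripts. Ccr2, the chemokine receptor of inflammatory monocytes, went from 7, 21, 15 and 6 counts to 922, 39, 446 and 123 (log2 fold change 4.65, adjusted p = 0.00910, edgeR), in the same mouse order as Ms4a7. Ly6c2, an antigen of the same monocytes, had 0 to 3 counts in each sham mouse, against 464, 14, 202 and 37 in the BCAS group. Among neutrophil genes, none of them tested except Csf3r, Ly6g was at 0 in every library. S100a8 had 1, 0, 6 and 5 counts in the sham group and 43, 5, 69 and 12 in the BCAS group, and S100a9 had 6, 1, 4 and 0 against 92, 7, 98 and 16. Csf3r had 160, 111, 130 and 84 counts in the sham group, where these genes had few or none, and 4665, 1060, 2129 and 1945 in the BCAS group. It thus need not come from neutrophils, and its cells of origin were not tested. The part of monocyte-derived cells in the Ms4a7 and F13a1 values was not tested.

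Meningeal and perivascular fibroblast genes had 9 of 11 called higher, with sums of 101 to 131 CPM in sham and 217 to 1009 CPM in BCAS mice. Among them the fibrillar collagen Col3a1 had a log2 fold change of 4.40 (adjusted p = 0.00347, edgeR), while the proteoglycan Dcn had 2.74 (adjusted p = 0.00437, edgeR). Blood vessel endothelial genes had none of 7 called, with sums of 276 to 364 CPM in sham and 342 to 497 CPM in BCAS mice. By edgeR, 2 of these 7 had an adjusted p under 0.05 with a smaller fold, against 19.2% of all tested genes with a higher level at that threshold alone. Red blood cell genes had none of 5 called past the fold threshold, although 2 were higher at an adjusted p under 0.05 by edgeR, with Hba-a1, a hemoglobin chain, at a log2 fold change of 0.41 (adjusted p = 0.0288). Their sums of 59.3 to 80.8 CPM in sham and 94.5 to 124 CPM in BCAS mice did not overlap. Choroid plexus genes had none of 8 tested called, with a median log2 fold change of -0.60 that included the high level in sham mouse 3. Without sham mouse 3, 5 of the 6 called markers stayed called, Lyve1 was lost, and Folr2 was called after it entered the test through the BCAS libraries. All 6 genes of the cortical excitatory neuron list had negative log2 fold changes, 4 of them at an adjusted p under 0.05 by edgeR. Of these, 2 were also past the fold threshold, Tbr1 (-1.10) and Snap25 (-1.07), which neurons in general make. The tissue around the macrophages thus also differed between the groups, and the part of this in the levels per library was not tested.

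**Figure D4:**
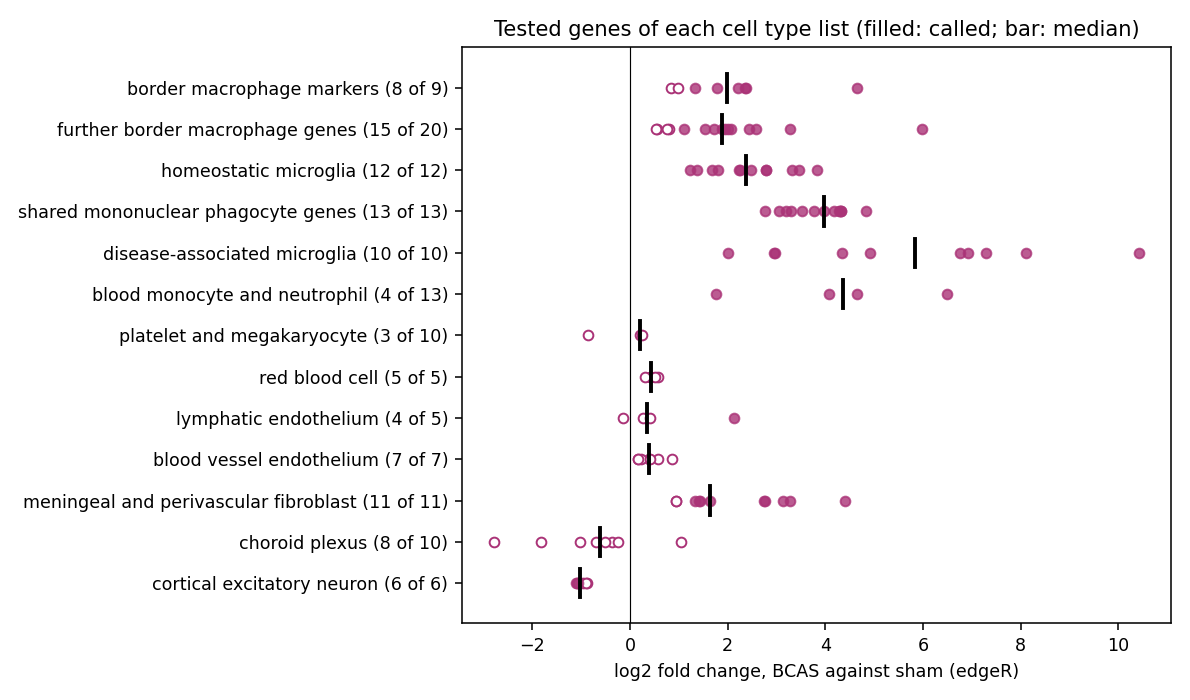
Log2 fold change of BCAS against sham mice (horizontal axis) for the tested genes of each cell type list, with 1 point per gene, filled where the gene was called, and a black bar at the median of the list. The 8 tested markers have a median of 2.0, the homeostatic microglial genes 2.37 and the shared phagocyte genes 3.97, and the platelet genes have a median of 0.21.

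The pathways in which the markers act were described from lists of their other members. For hemoglobin and heme handling, the route that Cd163 serves, 9 of 10 genes were tested, 3 rose and none fell, with a median log2 fold change of 0.66. Hmox1, the enzyme that breaks down heme, went from 59, 69, 50 and 58 counts in sham mice to 1027, 184, 691 and 408 in BCAS mice (log2 fold change 3.03, adjusted p = 0.00302, edgeR). Ftl1, the light chain of the iron store ferritin, had a log2 fold change of 2.0 (adjusted p = 0.00637, edgeR). Hp, which encodes the haptoglobin that Cd163 recognises with its cargo, had 12, 3, 3 and 8 counts in sham and 230, 9, 186 and 25 in BCAS mice, with overlapping groups and a log2 fold change of 3.82 (adjusted p = 0.0220, edgeR). Of the 3 genes that rose, Hp was the 1 with under 4 sham libraries at the filter level, so its passing rested on the BCAS libraries.

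For hyaluronan handling, to which Lyve1 belongs, 3 of 12 genes rose and none fell, with a median log2 fold change of 0.57. Cd44, the main hyaluronan receptor of leukocytes and reactive glia, went from 37, 32, 67 and 44 counts to 1891, 354, 1140 and 616 (log2 fold change 4.21, adjusted p = 0.00184, edgeR). The synthase Has2 had 1.57 (adjusted p = 0.0187, edgeR), after passing the filter through the BCAS libraries, and the receptor Hmmr 1.33 (adjusted p = 0.0328, edgeR). Stab2, the relative of Stab1 that also binds hyaluronan, had 21, 17, 25 and 9 counts in sham and 57, 22, 27 and 6 in BCAS mice, at a log2 fold change of 0.37 (adjusted p = 0.614, edgeR).

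Of 12 macrophage survival and lineage factors 9 rose and none fell past the fold threshold, with a median log2 fold change of 2.29. They included the growth factor Csf1 at 2.25 (adjusted p = 0.00198, edgeR), the transcription factors Irf8 at 3.96 (adjusted p = 0.00176, edgeR) and Spi1 at 3.52 (adjusted p = 0.00205, edgeR), and Tgfb1 at 3.28 (adjusted p = 0.00203, edgeR). Il34, the other ligand of Csf1r, was lower at an adjusted p under 0.05 with a smaller fold, from 50.9, 54.9, 53.7 and 57.6 CPM in the sham group to 37.4, 47.4, 40.3 and 45.8 CPM in the BCAS group (log2 fold change -0.35, adjusted p = 0.0250, edgeR). Of 14 genes of alternative activation, the state in which macrophages raise Mrc1, 8 were tested, 5 rose and none fell, and 2 of the 5 had under 4 sham libraries at the filter level. The receptor chains Il10ra at 3.22 (adjusted p = 0.00252, edgeR) and Il4ra at 2.62 (adjusted p = 0.00373, edgeR) were among them. Il10 itself was at 0 in every library.

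The relatives of the 9 genes gave a mixed picture by family. Of 26 relatives 19 were tested, 12 rose and none fell, and 7 of the 12 had under 4 sham libraries at the filter level. In the family of Ms4a7, Ms4a4b had the largest difference, from 2, 1, 5 and 3 counts in the sham group to 593, 12, 246 and 61 in the BCAS group (log2 fold change 6.01, adjusted p = 0.00877, edgeR), after passing the filter through the BCAS libraries. Ms4a6c had a log2 fold change of 4.80 (adjusted p = 0.00389, edgeR), Ms4a6d 3.59 (adjusted p = 0.00870, edgeR) and Ms4a6b 3.48 (adjusted p = 0.00947, edgeR). Members of this family resemble one another in sequence, so reads may be split between them. Tgm1, a transglutaminase like F13a1, had 6.03 (adjusted p = 0.00210, edgeR), from 1, 3, 2 and 6 counts in sham mice, and also passed the filter through the BCAS libraries. Mrc2, the collagen-binding relative of Mrc1, had 2.50 (adjusted p = 0.00254, edgeR). The other carbonyl reductases did not pass the test, with Cbr1 at -0.23 (adjusted p = 0.252, edgeR) and Cbr3 at 0.56 (adjusted p = 0.0716, edgeR). Folr1, a choroid plexus folate receptor, had 16, 24, 104 and 4 counts in the sham group, against 17, 14, 7 and 10 in the BCAS group, highest in sham mouse 3. Ms4a6c, Ms4a6d, Ms4a6b, Cbr1, Cbr3, Folr1 and Stab2, like Dab2, Maf, Cd209f, Il34, S100a8, S100a9, Fn1, Treml1, Tubb1 and Clec1b, were named after their values were seen.

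Across the 8 mice the median of the 9 markers, as log2 CPM relative to the sham mean, was -0.11, 0.01, -0.10 and -0.02 in sham mice 1 to 4, against 2.63, 0.80, 2.05 and 1.53 in BCAS mice 1 to 4. Among 15866 genes compared, those whose pattern was most like it by the root-mean-square difference over the 8 libraries included Samhd1 (0.0845 log2 units), Adam17 (0.0891), Slc29a3 (0.0895) and Tapbp (0.0952). Their log2 fold changes were 1.82 for Samhd1, 1.90 for Adam17, 1.99 for Slc29a3 and 1.96 for Tapbp.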

How the data were processed

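RNA-seq of 8 right cortex samples (4 sham and 4 BCAS mice, 3 weeks) was analysed. The authors ran Trim Galore on the paired reads, mapped these to mm10 with HISAT2, sorted them with SAMtools 1.9 and deposited unnormalised featureCounts counts per gene. The file headers name featureCounts 2.0.1 and GENCODE vM20, the labels 1.6.3. Symbols were matched by gene identifier for 54723 of 54752 genes.

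From these counts, edgeR 4.0.16 (R 4.3.3) was run with TMM scaling, filterByExpr (minimum count 10, minimum total 15) and the quasi-likelihood F-test between the groups, without covariates. The SE was derived from the fold change and F. For counting error only, a gene with 0 counts in the smallest library may be at up to 0.179 CPM (3 counts). No 2 libraries of the same group agreed within sampling noise. Alternatives used other scalings, filters, tests (DESeq2 1.42.0, limma 3.58.1), thinning, a replicate block, other reference genes and the omission of each mouse. Procedures were tested on simulated data. The markers and lists were chosen with earlier results of these data known. Named genes are the 9 markers, Csf1r, the first gene and up to 3 called genes with the largest change of each list, and the 5 genes of most similar pattern, of which some are not reported here. Further genes are named in the text as chosen after their values were seen.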

Additional observations from a re-analysis of the deposited data

How the results depend on the processing

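Mrc1, Stab1, Cbr2 and F13a1 were called under all 19 alternatives in which they were tested, and every tested marker kept a positive log2 fold change. Of the 6 called markers, 4 stayed called under limma-voom, 5 under limma-trend on log2(CPM + 1), 5 without the low-count filter and 5 or 6 when 1 mouse was left out. With Folr2, Cd163 and Pf4 counted, the number called without 1 mouse was 5 to 9. Lyve1 was not called without the low-count filter (1.31), under limma-voom (1.18) or under limma-trend (0.72), and its range without 1 mouse was 0.85 to 1.53. Ms4a7 was not called under limma-voom (4.00) and ranged from 4.04 to 5.04 without 1 mouse. Cd163 ranged from 0.59 to 1.04 and Pf4 from 0.77 to 1.21, and under DESeq2 their adjusted p-values were 0.0275 and 0.0427 with folds still under the threshold. Folr2 was 2.82 without the filter and 2.76 to 3.14 where leaving out 1 mouse let it into the test, where it passed the filter only through the BCAS libraries. Ranges without 1 mouse were 1.56 to 1.99 for Mrc1, 1.91 to 2.66 for Stab1, 2.22 to 2.58 for Cbr2 and 1.84 to 2.49 for F13a1. Under limma-trend the log2 fold change was 1.32 for Cbr2 and 2.67 for Ms4a7, well below the edgeR values of 2.38 and 4.65, and both stayed called. The causes of these changes were not tested. Genes called numbered 1644 without BCAS mouse 1 and 2967 without BCAS mouse 2, against 2097, and 5490 with the adjusted p alone. Without the filter 9 in place of 4 blood monocyte and neutrophil genes were called.

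Replicate numbers are shared between the groups, but same-numbered mice did not deviate together (correlations -0.10 to 0.00), so the numbers do not pair the samples. With the replicate block 1809 genes and 5 markers were called, and Lyve1 was 1.19 and not called.

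Relative to C1qa, C1qb and C1qc in place of Csf1r, the log2 differences were -2.39 for Mrc1, -3.28 for Cd163, -2.92 for Lyve1, -1.96 for Stab1, -3.15 for Pf4, -1.78 for Cbr2, -2.07 for F13a1 and -1.64 for Folr2, all past the threshold in the exact permutation test, and Ms4a7 turned to -0.13. Relative to Aif1 they were -1.21 for Mrc1, -2.09 for Cd163, -1.74 for Lyve1, -0.78 for Stab1, -1.96 for Pf4 and -0.89 for F13a1, also past it. The others, Cbr2 (-0.59), Folr2 (-0.45) and Ms4a7 (1.06), did not pass. A pseudocount of 1 changed no call, but moved Folr2 relative to Csf1r from -0.19 to -0.38 (exact permutation, adjusted p = 0.0514), and leaving out 1 mouse gave it -0.26 to -0.04. Without 1 mouse, the difference from Csf1r stayed negative for the 8 markers that had a negative one and positive for Ms4a7 (0.89 to 1.81).

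Lyve1, Pf4, Cbr2, Folr2 and Ms4a7 rest on 22 counts or fewer in each sham mouse, so their folds carry a wide counting error.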

Other observations

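The ratio of Ms4a7 to Ccr2 counts, chosen after the values were seen, was 0.680, 0.744, 0.830 and 0.724 in BCAS mice 1 to 4, while the counts of Ms4a7 themselves spanned 29 to 627. In sham mice it was 1.71, 0.571, 0.533 and 0.667, from 4 to 12 counts of Ms4a7 and 6 to 21 of Ccr2, and 0.735 over the summed counts. The ratio of Ms4a7 to Csf3r, the receptor for granulocyte colony-stimulating factor, spanned 0.0274 to 0.174 in BCAS mice. The ratio of Ms4a7 to Ly6c2 was 6 over the summed sham counts, with 6 counts of Ly6c2, and 1.35 to 2.41 in BCAS mice. These ratios are given as values, with no test.

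Among the border macrophage genes that were too low to test, 3 are given here that were chosen after their values were seen. Ccl8, a monocyte chemoattractant, had 0 counts in all 4 sham mice and 182, 5, 106 and 22 counts in BCAS mice. Timd4, a phosphatidylserine receptor of long-lived tissue macrophages, had 0 to 2 counts in sham and 2 to 3 counts in BCAS mice. Ccl24, an eosinophil chemoattractant, had 0 to 7 counts in sham and 3 to 5 counts in BCAS mice.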
